A study of Homo sapiens with 6 samples.

Results

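The NF-kB genes described here are 10 genes: the subunit genes NFKB1, NFKB2, RELA, RELB and REL, the inhibitor and feedback genes NFKBIA, NFKBIZ and TNFAIP3, and the survival and adaptor genes BIRC3 and TRAF1. They were chosen by gene symbol out of 19940 gene rows, all 10 are on 1 row each, and all 10 passed the filter on low counts that left 18208 genes for testing. Earlier results of these libraries were known when they were chosen, and the choice rested on their opposite directions between libraries labelled isotonic and hypertonic, so those directions are given as a description, with no test. RNA came from U2OS cells, a human osteosarcoma line, stably carrying GFP-DCP1A under G418 selection, and every group carried this transgene, a fusion of a decapping factor of P-bodies. The isotonic group had medium at 150 mM sodium, made by mock addition of 1x PBS. The hypertonic group had medium raised with 10x PBS to 300 mM sodium for 4 h, and the rescue group had the same for 4 h and then isotonic medium for 4 h. Each group held 2 libraries of ribosomal RNA-depleted total RNA, called isotonic 1 and 2, hypertonic 1 and 2, and rescue 1 and 2 after their labels. No isotonic library was kept for the additional time of the rescue, so recovery and time of harvest cannot be told apart. Nothing in the labels ties the 2 libraries of a group to separate cultures, and the p-values below therefore reflect library-to-library spread that may be technical.

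NF-kB is a family of dimeric transcription factors built from the Rel proteins. In resting cells inhibitors of the IkB family hold the dimers in the cytoplasm, and an upstream kinase complex, IKK, marks the inhibitors for destruction when receptors of tumour necrosis factor or interleukin 1 are engaged. The released dimers switch on genes of inflammation and survival together with their own inhibitors, which closes a feedback loop. In a parallel, slower arm the kinase MAP3K14 drives processing of the NFKB2 precursor, which then pairs with RELB.

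Library totals lay between 90196278 and 105991428 counts. Levels are given as CPM, counts scaled to the library total, and 3 counts were worth 0.0283 to 0.0333 CPM. The isotonic and hypertonic libraries did not lie together by their labels. Across 17388 rows with at least 100 summed counts, the SD of the log2 ratio was 0.96 between isotonic 1 and isotonic 2 and 0.95 between hypertonic 1 and hypertonic 2, against 0.18 between isotonic 1 and hypertonic 2 and 0.19 between isotonic 2 and hypertonic 1. The osmoadaptive genes NFAT5, SLC5A3, SLC6A6, AKR1B1 and SLC38A2 summed to 840 CPM in isotonic 1 and 854 CPM in hypertonic 2, but to 4422 CPM in isotonic 2 and 4360 CPM in hypertonic 1, and to 1292 and 1299 CPM in rescue 1 and 2. SLC38A2 made up 2727 of the 4422 CPM in isotonic 2, but each of the 5 genes was at least 2-fold higher in hypertonic 1 than in isotonic 1. In rescue 1 and 2 NFAT5 stood at 118 and 132 CPM, below all 4 other libraries (157 to 457 CPM). The other genes of this list lay inside that range of libraries in rescue. The rows of SLC5A3 and SLC6A6 overlap those of MRPS6 and GRIP2. No library was relabelled, and each direction below is that of the library with the named label. Whether the isotonic and hypertonic libraries of 1 number were exchanged was not tested. If they were, every hypertonic to isotonic direction in that number would be reversed, and the labelled isotonic and hypertonic means and the tests of rescue against them would mix both states. Of the osteoblast lineage markers, COL1A1 stood at 828 to 1175 CPM, SPARC at 687 to 744 CPM and RUNX2 at 17.2 to 77.7 CPM, while COL1A2, SP7 and IBSP were under 1 CPM in every library.

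Promoter stretches are shown for BIRC3 and TRAF1, whose levels differed most between libraries, and for the feedback genes TNFAIP3 and NFKBIA, which ran in the opposite direction, with matches to the kappa-B consensus, the 10-base recognition motif of NF-kB dimers, in capitals. They are written 5′ to 3′ on the gene's strand, from RefSeq windows on GRCh38.p14 covering the 250 bases before a transcription start. Bases that GENCODE release 29 places in an exon are left out, except for TNFAIP3, where 30 bases around the matches are shown that lie within an annotated first exon.
BIRC3 (chr11:102317234-102317449, plus strand): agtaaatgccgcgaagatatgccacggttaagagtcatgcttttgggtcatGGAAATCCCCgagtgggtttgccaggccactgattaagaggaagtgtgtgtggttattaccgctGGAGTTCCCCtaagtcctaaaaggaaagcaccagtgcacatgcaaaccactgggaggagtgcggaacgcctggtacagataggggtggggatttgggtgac
TRAF1 (chr9:120929174-120929421, minus strand): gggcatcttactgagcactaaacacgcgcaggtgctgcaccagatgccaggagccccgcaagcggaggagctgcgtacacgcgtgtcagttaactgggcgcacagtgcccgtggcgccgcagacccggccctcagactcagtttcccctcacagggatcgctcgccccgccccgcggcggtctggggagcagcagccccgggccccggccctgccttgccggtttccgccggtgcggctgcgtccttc
TNFAIP3 (chr6:137867188-137867217, plus strand): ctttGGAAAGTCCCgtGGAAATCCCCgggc
NFKBIA (chr14:35404750-35404999, minus strand): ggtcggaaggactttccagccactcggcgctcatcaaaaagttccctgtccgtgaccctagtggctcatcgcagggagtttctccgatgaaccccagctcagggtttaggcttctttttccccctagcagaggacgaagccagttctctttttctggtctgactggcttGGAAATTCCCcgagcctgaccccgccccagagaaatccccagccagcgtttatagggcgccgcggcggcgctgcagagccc

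Both strands were searched. BIRC3 held 2 matches, starting 199 and 135 bases before its start, TNFAIP3 held 2 at 67 and 55 bases, and NFKBIA held 1 at 81 bases. TRAF1 held none in any of its 3 windows. Windows were found for 9 of the 10 genes, all but RELB, 16 windows in all, and 9 of these windows and 7 of the 9 genes held a match. By comparison, 9.96% of 35116 RefSeq windows of the same length held a match, a share of windows and not of genes. Among the other pathway genes described below, 25.8% of 93 windows and 31.2% of 64 genes held a match. The 10 genes were chosen as NF-kB genes, so nothing is read from these shares. In 1 of the NFKB2 windows and in the REL window a pair of the matches overlap. A match is a string of letters and not a measured site, and BIRC3 and TNFAIP3, each with 2 matches, differed between libraries in opposite directions.

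**Figure D1:**
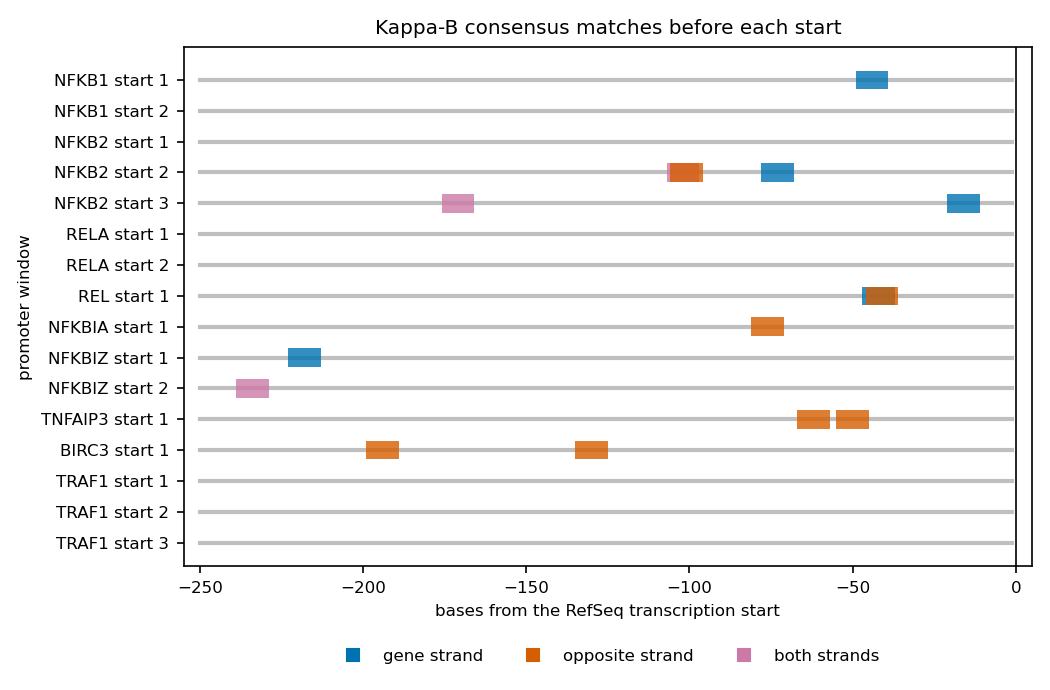
Positions of kappa-B consensus matches in the 250 bases before each RefSeq transcription start of 9 NF-kB genes (x axis, bases from the start; each grey line is 1 of 16 windows; boxes are matches, coloured by strand). The boxes lie in 9 of the 16 windows, and the windows of RELA and TRAF1 hold none.

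Among the subunit genes, RELB and NFKB2 differed most between the libraries and NFKB1 went the other way. Gene positions are those of GENCODE release 29 on GRCh38. RELB (chr19:45001430-45038198, plus strand), the subunit that pairs with processed NFKB2, was measured at 35.2 and 10.6 CPM in isotonic 1 and 2, at 11.7 and 34.2 CPM in hypertonic 1 and 2, and at 47.6 and 44.3 CPM in libraries rescue 1 and 2. The libraries isotonic 2 and hypertonic 1 were the low ones, both groups spanned the same range, and the rescue libraries lay above all others. RELB was therefore 2.99-fold lower in hypertonic 1 than in isotonic 1 and 3.22-fold higher in hypertonic 2 than in isotonic 2.

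NFKB2 (chr10:102394110-102402529, plus strand), which encodes the precursor of the slower arm, followed the same order. Its levels stood at 42.3 and 20.7 CPM in isotonic 1 and 2, at 20.9 and 42.8 CPM in hypertonic 1 and 2, and at 53.0 and 50.0 CPM in libraries rescue 1 and 2. The hypertonic to isotonic ratio on the log2 scale was -1.02 in number 1 and 1.04 in number 2. With TMM scaling, which corrects for differences in library composition, these became -0.86 and 0.90, so that the gene was just past 2-fold by library total and just short of it by TMM.

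NFKB1 (chr4:102501329-102617302, plus strand) encodes the precursor of the subunit that most often pairs with RELA, and its order was inverted. The gene stood at 146 and 216 CPM in isotonic 1 and 2, at 214 and 144 CPM in hypertonic 1 and 2, and at 114 and 117 CPM in libraries rescue 1 and 2. Here isotonic 2 and hypertonic 1 were the high libraries, and the rescue libraries lay below all others. Hypertonic over isotonic gave log2 ratios of 0.55 for number 1 and -0.59 for number 2.

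RELA (chr11:65653596-65663094, minus strand), the main transactivating subunit, and REL (chr2:60881521-60931610, plus strand), a subunit best known from lymphocytes, differed less. RELA was measured at 67.7 and 48.4 CPM in isotonic 1 and 2, at 49.2 and 64.6 CPM in hypertonic 1 and 2, and at 55.5 and 54.2 CPM in libraries rescue 1 and 2. Its rescue libraries lay inside the range of the other 4 by library total. REL was measured at 45.2 and 39.4 CPM in isotonic 1 and 2, at 38.4 and 43.8 CPM in hypertonic 1 and 2, and at 55.1 and 59.4 CPM in libraries rescue 1 and 2. REL showed the smallest log2 ratios of the 10 genes, -0.24 in number 1 and 0.15 in number 2, and its rescue libraries lay above all others. A noncoding transcript on the same strand overlaps 5702 bases of the REL gene, so reads of both may be counted together.

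**Figure D2:**
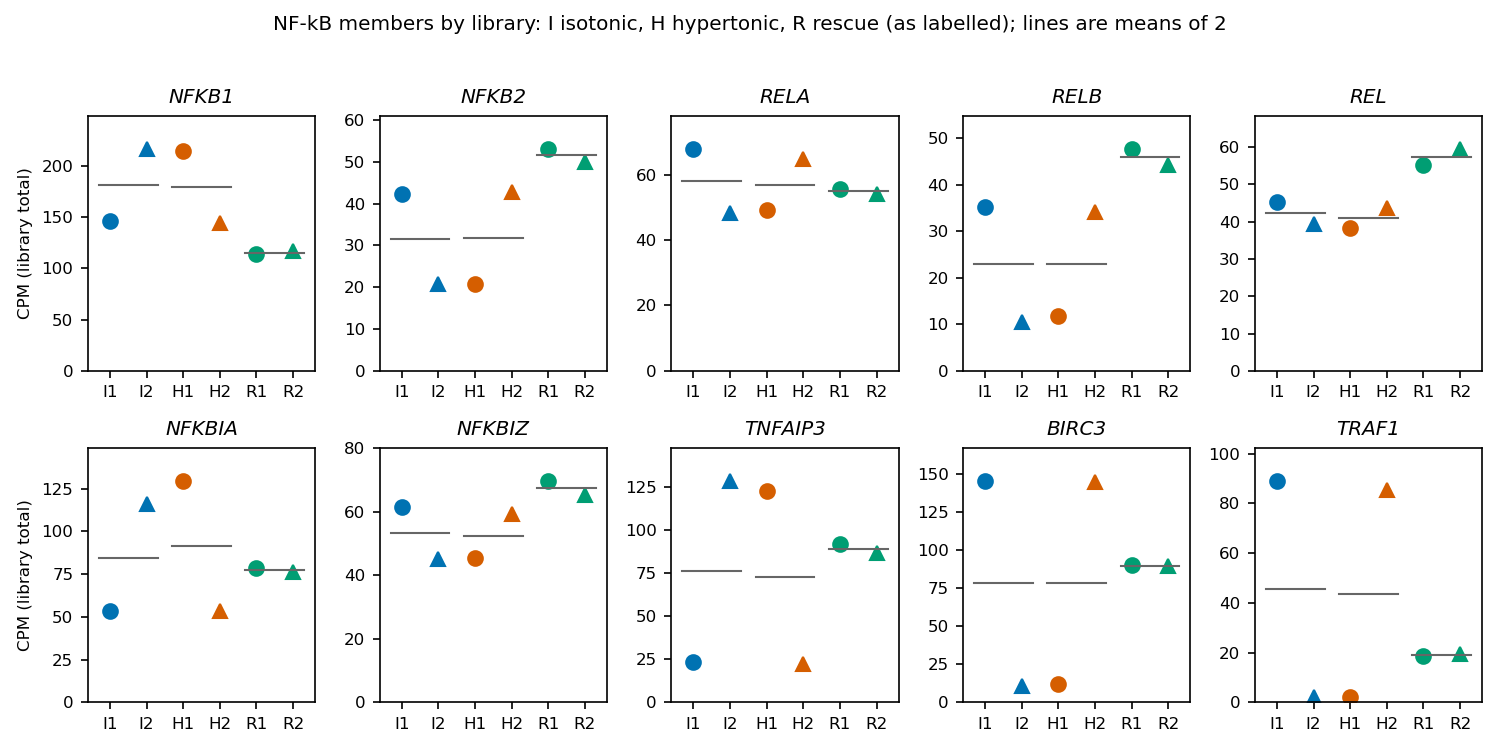
Level of the 10 NF-kB genes in each library (y axis, CPM by library total from 0; I isotonic, H hypertonic, R rescue as labelled; circles number 1, triangles number 2; lines are means of 2 libraries). In every panel I1 lies beside H2 and I2 beside H1, with TRAF1 at 89.1 and 85.5 against 2.13 and 2.02 CPM.

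The inhibitor and feedback genes split. TNFAIP3 (chr6:137867188-137883312, plus strand) encodes a ubiquitin-editing enzyme that shuts off signalling from the receptors to IKK. It was measured at 23.3 and 129 CPM in isotonic 1 and 2, at 123 and 22.5 CPM in hypertonic 1 and 2, and at 91.8 and 86.7 CPM in libraries rescue 1 and 2. It was 5.23-fold higher in hypertonic 1 than in isotonic 1 and 5.70-fold lower in hypertonic 2 than in isotonic 2. The rescue libraries lay between the high and the low libraries, nearer to the high ones. An antisense gene overlaps 1046 bases of TNFAIP3, and how the counting treated strand is not given in the sources used here.

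NFKBIA (chr14:35401511-35404749, minus strand), the classical IkB inhibitor and a rapid target of the pathway, had the same order as TNFAIP3. Its levels stood at 53.5 and 116 CPM in isotonic 1 and 2, at 130 and 53.5 CPM in hypertonic 1 and 2, and at 78.7 and 76.2 CPM in libraries rescue 1 and 2. Its ratio was 2.42-fold higher in number 1 and 2.16-fold lower in number 2, with the rescue libraries in between.

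NFKBIZ (chr3:101827991-101861022, plus strand) encodes a nuclear IkB protein that acts as a cofactor at secondary target genes. Outside rescue it followed RELA rather than NFKBIA, but its rescue libraries lay above all others by library total. Levels stood at 61.5 and 45.2 CPM in isotonic 1 and 2, at 45.3 and 59.2 CPM in hypertonic 1 and 2, and at 69.7 and 65.1 CPM in libraries rescue 1 and 2. Its log2 ratios were -0.44 in number 1 and 0.39 in number 2.

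BIRC3 and TRAF1 had the largest ratios of the 10 genes. BIRC3 (chr11:102317450-102339403, plus strand) encodes a ubiquitin ligase of the inhibitor of apoptosis family that works in the receptor complex. It was measured at 145 and 10.8 CPM in isotonic 1 and 2, at 12.2 and 145 CPM in hypertonic 1 and 2, and at 90.3 and 89.1 CPM in libraries rescue 1 and 2. It was 11.8-fold lower in hypertonic 1 than in isotonic 1 and 13.3-fold higher in hypertonic 2 than in isotonic 2.

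TRAF1 (chr9:120902393-120929173, minus strand) encodes an adaptor that binds the BIRC2 and BIRC3 proteins at the receptors. It was measured at 89.1 and 2.13 CPM in isotonic 1 and 2, at 2.02 and 85.5 CPM in hypertonic 1 and 2, and at 18.5 and 19.6 CPM in libraries rescue 1 and 2. The low libraries still held 192 and 205 counts, so they were well above the floor of 3 counts. On the log2 scale of CPM plus 0.1 the ratio was -5.39 in number 1 and 5.26 in number 2. For both genes the rescue libraries lay between the others, but TRAF1 stood at 0.215 and 0.224 of its level in isotonic 1 and hypertonic 2, and BIRC3 at 0.618 and 0.621.

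**Figure D3:**
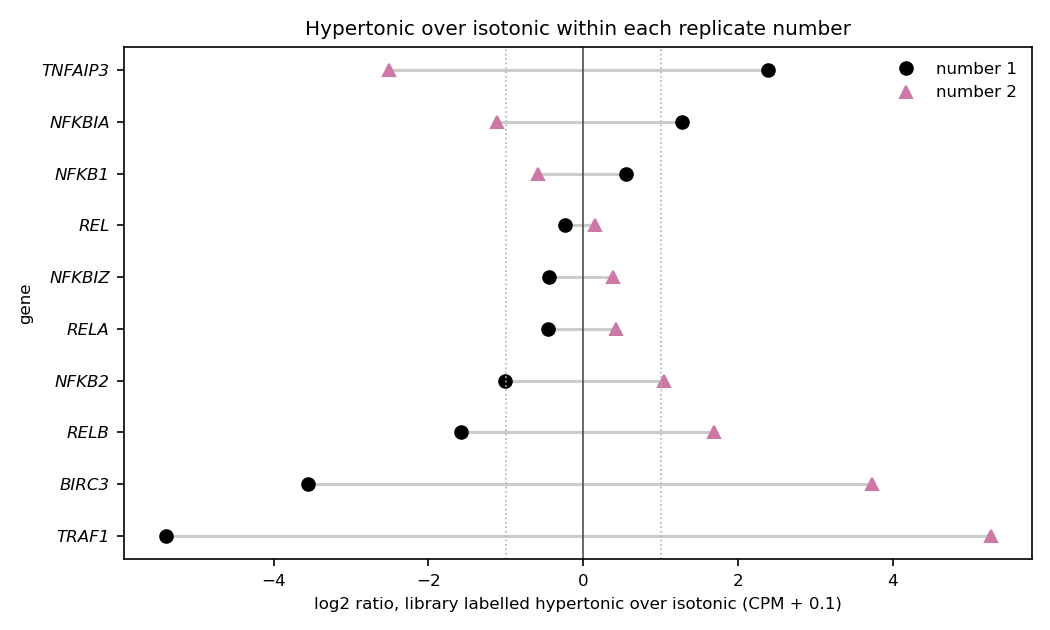
Log2 ratio of the library labelled hypertonic over the library labelled isotonic (x axis, CPM plus 0.1) for each of the 10 genes (y axis), in number 1 (circles) and number 2 (triangles); dotted lines mark 2-fold. Each gene has its points on opposite sides of 0, from -5.39 and 5.26 for TRAF1 to -0.24 and 0.15 for REL.

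All 10 genes had opposite signs in the replicate numbers, as did 91.1% of the genes tested. By library total, 2 of the 10 were at least 2-fold higher in number 1, against 10.0% of the genes tested, and 4 were at least 2-fold lower, against 12.6%. In number 2 there were 4 higher, against 12.0%, and 2 lower, against 10.4%. The choice of the genes rested on this contrast, so nothing is read from these counts. Between the libraries that lay together, the log2 ratio farthest from 0 among the 10 genes was -0.07 for hypertonic 2 over isotonic 1 (RELA), 0.17 for hypertonic 1 over isotonic 2 (BIRC3) and 0.11 for rescue 2 over rescue 1 (REL). With the libraries grouped as labelled, edgeR's quasi-likelihood test called 0 of 18208 genes between hypertonic and isotonic, or 0% (52 at an unadjusted p under 0.05; limma voom called 0 and DESeq2 1).

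Levels of different genes were set side by side only per kilobase of merged exon. In the rescue libraries NFKBIA stood highest, at 33.2 and 32.1 CPM per kilobase, followed by NFKB1 and TNFAIP3, at 18.2 and 18.6 and at 18.2 and 17.2 CPM per kilobase, which overlap. RELB was next at 15.7 and 14.6 CPM per kilobase, and REL and TRAF1 stood lowest, at 4.19 and 4.51 and at 2.88 and 3.03 CPM per kilobase. In isotonic 2 TNFAIP3 stood at 25.5 and BIRC3 at 1.44 CPM per kilobase, and in isotonic 1 at 4.62 and 19.3 CPM per kilobase, so the order of these genes was inverted between libraries of the same label. Whether introns were counted is not given in the sources used here. Per kilobase of the whole gene span NFKB1, a gene of 115974 bases, fell to 0.98 and 1.00 CPM per kilobase in the rescue libraries.

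The comparisons of rescue with isotonic and with hypertonic ask how far the levels stood from each labelled group mean after the return to isotonic medium. They share the rescue libraries. Isotonic 1 lay with hypertonic 2 and isotonic 2 with hypertonic 1, so both labelled groups spanned nearly the same levels and their means lay close. The comparisons are therefore nearly the same test, and like results in both are not separate evidence. Unless library total is named, the edgeR fold changes here and below are TMM-scaled. The CPM levels are by library total, so ratios of them differ from those fold changes. None of the 10 genes passed in either comparison (edgeR quasi-likelihood test, Benjamini-Hochberg adjustment over 18208 genes), while 23.1% of the genes tested passed against isotonic and 23.6% against hypertonic. DESeq2 and limma voom also called 0 of the 10. Of the 18208 genes, DESeq2 called 7041 against isotonic and 7105 against hypertonic, and limma voom 5104 and 5276. The genes were chosen for opposite directions between libraries of the same label, which widens the within-group spread these tests use, so the choice itself bears on the count of 0 and nothing is read from it beside the shares of all genes. By the edgeR test only NFKB1 had an unadjusted p under 0.05. Its level was 115 ± 2.00 CPM in rescue, 181 ± 49.5 CPM in isotonic and 179 ± 49.7 CPM in hypertonic (mean ± SD, n = 2 each). The log2 fold change was -0.96 (SE 0.35) against isotonic and -0.95 (SE 0.35) against hypertonic, with edgeR adjusted p = 0.121 and 0.124. DESeq2 put NFKB1 just past the threshold, with DESeq2 adjusted p = 0.0533 and 0.0569.

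The SD within the labelled isotonic and hypertonic groups exceeded the mean for BIRC3 and TRAF1. BIRC3 was at 89.7 ± 0.817 CPM in rescue, 78.1 ± 95.1 CPM in isotonic and 78.4 ± 93.6 CPM in hypertonic (mean ± SD, n = 2 each), with edgeR adjusted p = 0.991 and 0.985. TRAF1 had a log2 fold change of -1.48 (SE 2.10) against isotonic and -1.43 (SE 2.10) against hypertonic (edgeR adjusted p = 0.652 and 0.66). RELB had 0.75 (SE 0.70) and 0.73 (SE 0.70), with edgeR adjusted p = 0.488 and 0.497. Its log2 fold change against isotonic was 1.75 without isotonic 1 and 0.17 without isotonic 2, and against hypertonic 0.20 without hypertonic 1 and 1.62 without hypertonic 2. The remaining members had log2 fold changes from -0.57 to 0.44 over both comparisons. The median over the 10 genes was -0.07 against isotonic and -0.05 against hypertonic, beside -0.02 and -0.02 over all genes tested.

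Set against each library on its own, rescue had a position that differed by gene. By library total, NFKB2, RELB, REL and NFKBIZ lay above all 4 other libraries in both rescue libraries, and NFKB1 lay below all 4. Among the genes tested, 46.9% lay above and 21.8% below, 68.7% in all, against 5 of the 10. With TMM scaling, only RELB and REL lay above and NFKB1 and RELA below, while 34.7% and 33.6% of the genes tested did, 68.3% in all, against 4 of the 10. The direction of RELA and NFKBIZ depended on this choice. By library total and then by TMM, the log2 ratio of RELA was 0.18 and -0.19 against isotonic 2 and 0.16 and -0.22 against hypertonic 1. That of NFKBIZ was 0.13 and -0.09 against isotonic 1 and 0.19 and -0.04 against hypertonic 2. The shift comes with the scaling: it moved the median of all genes in rescue against isotonic by 0.29 on the log2 scale.

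NFKBIA, TNFAIP3, BIRC3 and TRAF1 lay inside the range of the other libraries under both scalings. The mean of the rescue libraries for TNFAIP3 was 3.81-fold that of isotonic 1 and 0.694-fold that of isotonic 2. For BIRC3 it was 0.618-fold that of isotonic 1 and 8.22-fold that of isotonic 2. For NFKBIA the values were 1.45-fold and 0.669-fold, and for TRAF1 0.215-fold and 8.59-fold. Without isotonic 2 and hypertonic 2, edgeR called 3 of the 10 genes higher in rescue than isotonic (RELB, NFKBIA and TNFAIP3) and 4 lower (NFKB1, RELA, BIRC3 and TRAF1), where 80.0% of all genes tested were called. Without isotonic 1 and hypertonic 1 it called 6 higher (NFKB2, RELB, REL, NFKBIZ, BIRC3 and TRAF1) and 4 lower (NFKB1, RELA, NFKBIA and TNFAIP3), where 81.7% were called. Against hypertonic the same sets came out with the numbers exchanged, 10 of 10 genes in number 1 and 7 of 10 in number 2, where 82.4% and 79.7% of all genes were called. These fits take the spread of a single library from the rescue pair, and the counts of members are near the shares of all genes.

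**Figure D4:**
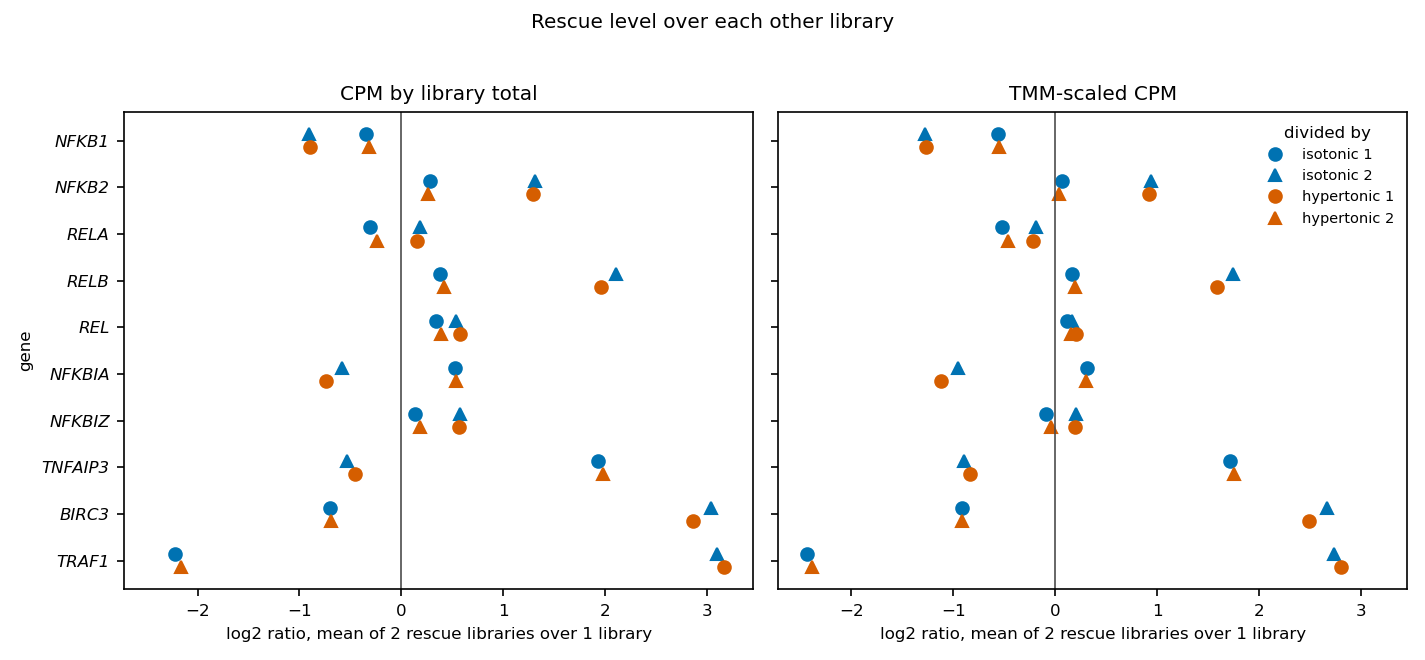
Log2 ratio of the mean of the 2 rescue libraries over each of the other 4 libraries (x axis, CPM plus 0.1) for the 10 genes (y axis), by library total (left) and with TMM scaling (right). TNFAIP3, NFKBIA, BIRC3 and TRAF1 have points on both sides of 0 in both panels, while NFKB1 lies below 0 against every library and RELB and REL above it.

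Summed levels of markers of other cell types were higher in the rescue libraries, and 1 of 9 leukocyte, 3 of 5 endothelial and 2 of 5 epithelial markers tested rose against isotonic (edgeR quasi-likelihood test), beside 9.61% of all genes tested and 0 of 10 osteoblast lineage markers. Against hypertonic the counts were 1, 3 and 1, and 0 osteoblast lineage markers, beside 9.86%. Low rows in general were detected more widely in rescue. Rescue 1 and 2 had 690 and 699 gene rows with no count, against 1248 to 1653 in the other libraries. By library total, the scale of the sums below, 46.9% of all genes tested lay above all 4 other libraries in both rescue libraries. The 10 leukocyte markers summed to at most 18.8 CPM in the isotonic and hypertonic libraries and to 30.1 to 32.3 CPM in rescue. The leukocyte marker that rose was SPI1, at 0.32 to 0.50 CPM outside rescue and 2.39 to 2.62 CPM in rescue (edgeR adjusted p = 0.033). PTPRC, at 0.32 to 1.00 and 2.17 to 2.54 CPM, did not pass (edgeR adjusted p = 0.219). CD3E did not pass either (edgeR adjusted p = 0.071), with no count outside rescue, which allows up to 0.0333 CPM, and 0.12 and 0.14 CPM in rescue. CORO1A ran the other way, at 4.53 to 5.13 CPM outside rescue and 3.31 to 3.69 CPM in rescue, and did not pass (edgeR adjusted p = 0.064). The 5 endothelial markers summed to 9.01 to 30.4 CPM outside rescue and 43.4 to 45.0 CPM in rescue, and the 5 epithelial markers to 5.47 to 7.70 and 16.8 to 18.0 CPM. Their part in the levels of the NF-kB genes was not tested. Every library is labelled as the same cultured line, so these levels are not read as numbers of cells of other types. The source of these transcripts was not tested. In bulk RNA a change in the number of cells and a change in RNA per cell cannot be told apart.

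The wider pathway was covered by 71 other genes, of which 70 rows were tested. In number 1, 10 rows were at least 2-fold higher in hypertonic and 18 at least 2-fold lower, beside 10.0% and 12.6% of all genes tested. In number 2 there were 18 higher and 10 lower, beside 12.0% and 10.4%. In the rescue comparisons 5 of 70 rose and 6 fell against isotonic, and 5 rose and 7 fell against hypertonic (edgeR quasi-likelihood test), beside 9.61% and 13.5% of all genes tested that rose and fell against isotonic and 9.86% and 13.8% against hypertonic. The median log2 fold change of the 70 was -0.05 and -0.09. The split against isotonic was 5 and 2 by library total, 6 and 2 by upper quartile and 9 and 10 with DESeq2. Against hypertonic it was 5 and 3, 6 and 3, and 9 and 10. Over all 18208 genes tested, the same settings gave 2050 and 1095, 2091 and 1404, and 3280 and 3761 against isotonic. The corresponding splits against hypertonic were 2109 and 1098, 2137 and 1448, and 3317 and 3788. Leaving out isotonic 1, isotonic 2, rescue 1 or rescue 2 brought the count against isotonic to 0, and leaving out hypertonic 1, hypertonic 2, rescue 1 or rescue 2 did so against hypertonic, as it did for all genes tested.

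Of the 4 other IkB family genes, NFKBIB, an inhibitor of the same class as NFKBIA, fell in rescue. It was measured at 16.7 and 19.9 CPM in isotonic 1 and 2, at 18.9 and 16.0 CPM in hypertonic 1 and 2, and at 8.66 and 8.08 CPM in libraries rescue 1 and 2. With TMM scaling it was 2.69-fold lower in rescue than in isotonic (edgeR adjusted p = 0.0215). By library total its log2 fold change was -1.13. Its row overlaps that of SIRT2. BCL3, a nuclear IkB protein, had 13.6 and 5.59 CPM in isotonic 1 and 2, 5.95 and 13.9 CPM in hypertonic 1 and 2, and 34.4 and 32.4 CPM in the rescue libraries, but did not pass (edgeR adjusted p = 0.114 against isotonic). NFKBIE followed the order of RELB outside rescue, at 21.5 and 9.46 CPM in isotonic 1 and 2. Its rescue libraries, at 19.8 and 18.0 CPM, lay inside the range of the others, unlike those of RELB. NFKBID followed the order of NFKB1 at 7.65 and 16.5 CPM in isotonic 1 and 2.

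Among 12 genes of IKK, its upstream kinases and their partner proteins, 1 rose and 1 fell in each rescue comparison. Of all genes tested, 9.61% rose and 13.5% fell against isotonic, and 9.86% and 13.8% against hypertonic. RIPK1, a kinase of the receptor complex, rose 1.40-fold against isotonic with TMM scaling (edgeR adjusted p = 0.0365). By library total its log2 fold change was 0.78, from 61.4 and 53.3 CPM to 98.5 and 98.1 CPM. CHUK, the catalytic IKK subunit of the slower arm, fell by 0.54 on the log2 scale (edgeR adjusted p = 0.0429), but did not pass when scaled by library total (-0.25, edgeR adjusted p = 0.29), and its row overlaps that of ERLIN1. Between the numbers the widest ratios were those of MAP3K14, the kinase of the slower arm, at 58.3 and 18.0 CPM in isotonic 1 and 2 and 18.0 and 56.1 CPM in hypertonic 1 and 2, and of IKBKE, at 21.8 and 7.21 CPM and at 8.05 and 21.1 CPM. MAP3K8 ran the other way at 12.9 and 30.4 CPM in isotonic 1 and 2, with 46.7 and 45.6 CPM in rescue.

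Among 19 receptors and adaptors, 3 rose and 1 fell against isotonic, beside 9.61% and 13.5% of all genes tested. The interleukin 1 receptor gene IL1R1 rose 1.86-fold and IRAK2, a kinase-like adaptor of the same receptor, 2.78-fold (edgeR adjusted p = 0.0285 and 0.0133). IRAK1, the kinase of that receptor, fell 4.46-fold with TMM scaling (edgeR adjusted p = 0.00834). By library total its log2 fold change was -1.86, from 166 and 163 CPM in isotonic to 45.5 and 45.3 CPM in rescue. IRAK1 was at 169 and 163 CPM in hypertonic 1 and 2, so the 4 libraries outside rescue lay within 163 to 169 CPM. TLR3, a receptor of double-stranded RNA named after its values were seen, was the third that rose (edgeR adjusted p = 0.00982), at 1.09 to 1.64 CPM outside rescue and at 8.15 and 8.69 CPM in it. CD40 was lower against hypertonic with edgeR adjusted p = 0.0441 and did not pass by library total (edgeR adjusted p = 0.242). Between the numbers TLR4, the endotoxin receptor, was at 20.0 and 98.2 CPM in isotonic 1 and 2 and 99.6 and 21.2 CPM in hypertonic 1 and 2. Outside rescue the adaptors TRAF2 (68.5 and 29.3 CPM in isotonic 1 and 2) and TRADD (9.40 and 4.57 CPM) had the order of BIRC3. In rescue 1 and 2 TRAF2, at 51.3 and 50.0 CPM, lay between its high and low libraries. TRADD, at 10.0 and 9.51 CPM, lay beside its high ones. The rows of TLR4 and TRADD overlap other genes.

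Of 12 genes of ubiquitin editing and feedback, 0 rose and 2 fell against isotonic, beside 9.61% and 13.5% of all genes tested. OTULIN, a deubiquitinase of linear chains, fell by 0.61 on the log2 scale and TAX1BP1, an adaptor of TNFAIP3, by 0.78 (edgeR adjusted p = 0.0207 and 0.0433 against isotonic). By library total neither passed against isotonic (edgeR adjusted p = 0.177 and 0.0511), and the row of TAX1BP1 overlaps that of JAZF1. CYLD, another deubiquitinase of the pathway, had the order of TNFAIP3, at 51.2 and 124 CPM in isotonic 1 and 2, 122 and 51.4 CPM in hypertonic 1 and 2 and 95.2 and 92.3 CPM in rescue 1 and 2. ZC3H12A, an RNase that degrades inflammatory mRNAs, was at 22.1 and 55.7 CPM in isotonic 1 and 2, in the same order, and RBCK1, of the linear ubiquitin ligase, was at 38.5 and 20.3 CPM, in the other order.

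Of the 24 other target genes, 23 rows were tested (CXCL1 and CXCL2 had too few counts). Against isotonic 1 rose and 1 fell, beside 9.61% and 13.5% of all genes tested. IRF1, a transcription factor gene, rose 2.76-fold with TMM scaling (edgeR adjusted p = 0.0152). By library total its log2 fold change was 1.75, at 36.9 to 38.4 CPM in rescue and 9.02 to 13.4 CPM elsewhere. Its row overlaps a protein-coding gene known by a clone name. TNFRSF9 fell by 0.53 on the log2 scale (edgeR adjusted p = 0.0299) and did not pass by library total (edgeR adjusted p = 0.25). In number 1, 4 of the 23 were at least 2-fold higher in hypertonic and 9 lower, beside 10.0% and 12.6% of all genes tested. PTGS2, the inducible cyclooxygenase gene, was at 1.12 and 10.8 CPM in isotonic 1 and 2 and 10.3 and 1.10 CPM in hypertonic 1 and 2. IER3, an early survival gene, was at 62.8 and 310 CPM in isotonic 1 and 2, and CXCL8, the neutrophil chemokine gene, was at 8.43 and 2.07 CPM. CXCL1 had no count in any library, which allows up to 0.0333 CPM in the smallest.

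**Figure D5:**
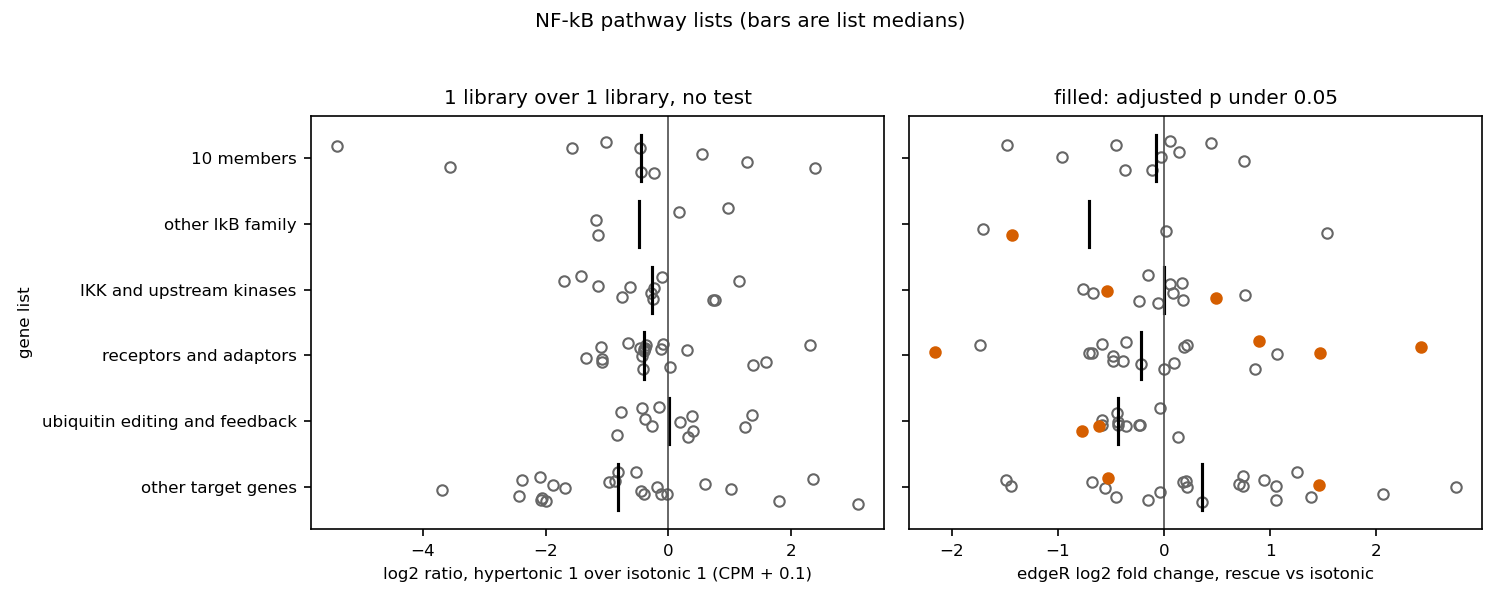
Log2 ratio of hypertonic 1 over isotonic 1 (left, 1 library over 1 library, no test) and edgeR log2 fold change of rescue against isotonic (right, filled where the adjusted p is under 0.05) for the tested genes of 6 lists (y axis); bars are list medians. The 10 members spread from -5.39 to 2.39 on the left, and none of them is filled on the right.

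The genes with the pattern most like that of TNFAIP3 over the 6 libraries, by the root mean square distance of centred log2 levels among 13116 other genes, were ITPRIP (0.059), GPR137B (0.079) and PMAIP1 (0.087). ITPRIP was at 30.5 and 156 CPM in isotonic 1 and 2 and at 110 and 102 CPM in libraries rescue 1 and 2. The nearest to BIRC3 were CLDN20 (0.19), ZNF221 (0.30) and TMEM177 (0.31), at larger distances. CLDN20 was at 1.29 CPM in isotonic 2, 14.4 CPM in hypertonic 2 and at 8.62 and 11.3 CPM in libraries rescue 1 and 2. The rows of GPR137B and CLDN20 overlap those of ERO1B and TFB1M.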

How the data were processed

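For each library the authors deposited a table of unnormalized read counts by gene symbol. The submitters' processing notes list bcl2fastq, Bowtie2, TopHat2 and bedtools with build GRCh38 (hg38). Their versions, the annotation and the strand treatment are not stated there. Members and lists were chosen with earlier results of these data known. CPM scales each count to the library total. edgeR 4.0.16 was fitted to all 6 libraries by quasi-likelihood, 1 mean for each label group (filterByExpr, TMM, robust dispersion, Benjamini-Hochberg over 18208 genes, two-sided threshold 0.05, 3 residual degrees of freedom). Ratios within a number used CPM plus 0.1 and carry no test. Named genes were the 10 members, in each list up to 4 passing genes averaging 5 CPM or more, the 3 widest ratios of number 1 per list, and the 3 nearest patterns to TNFAIP3 and BIRC3; TLR3 was added after its values were seen. DESeq2 1.42.0, limma 3.58.1, other scalings, no filter, a replicate block and left-out libraries were alternatives. The scripts were tested on simulated data. Library totals differ little, and a floor of 3 counts covers counting error alone. Gene positions and overlaps came from GENCODE release 29 and promoter windows from RefSeq; RELB is among the genes with none.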

Additional observations from a re-analysis of the deposited data

How the results depend on the processing

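All 20 rescue fold changes of the NF-kB genes (10 against isotonic, 10 against hypertonic) kept their direction and stayed uncalled with edgeR's RLE factors, DESeq2, no filter on low counts and the replicate block. TNFAIP3 and BIRC3 turned from lower to higher under other scalings. On the log2 scale they gave 0.23 and 0.20 against isotonic and 0.30 and 0.19 against hypertonic by library total, and 0.10 and 0.18, then 0.16 and 0.16, by upper quartile. With limma voom TNFAIP3, BIRC3 and TRAF1 gave 0.48, 0.76 and 0.015 against isotonic and 0.50, 0.74 and 0.16 against hypertonic. The cause was not tested. Against isotonic, the fit of number 1 gave 0.32 for NFKBIA, -0.080 for NFKBIZ and 1.72 for TNFAIP3, and the fit of number 2 gave 2.68 for BIRC3 and 2.79 for TRAF1. Against hypertonic, number 1 gave 2.53 for BIRC3 and 2.89 for TRAF1, and number 2 gave 0.31 for NFKBIA, -0.039 for NFKBIZ and 1.76 for TNFAIP3. Leaving out 1 library at a time moved the fold change against isotonic between -0.95 and 0.32 for NFKBIA, -0.086 and 0.21 for NFKBIZ, -0.90 and 1.72 for TNFAIP3, -0.91 and 2.68 for BIRC3 and -2.44 and 2.79 for TRAF1. Against hypertonic the ranges were -1.09 to 0.31, -0.040 to 0.23, -0.81 to 1.76, -0.92 to 2.53 and -2.39 to 2.89. The left-out libraries at these extremes were isotonic 1 or 2 in the first comparison and hypertonic 1 or 2 in the second.

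Over all genes tested, DESeq2 called 7041 against isotonic, 7105 against hypertonic and 1 between hypertonic and isotonic. The fit of number 1 called 14573, 15004 and 11899 genes and that of number 2 called 14884, 14509 and 11815, and both take the spread of a lone library from the rescue pair. Leaving out 1 library gave 0 to 3494 genes against isotonic, 0 to 3729 against hypertonic and 0 to 0 between hypertonic and isotonic. Higher and lower calls against isotonic were 1749 and 2453 with TMM, 2050 and 1095 by library total and 2091 and 1404 by upper quartile. Against hypertonic they were 1796 and 2508, 2109 and 1098, and 2137 and 1448. Deviations of same-numbered libraries gave r = -0.954 across genes for isotonic and hypertonic, and -0.027 and 0.04 with rescue. Isotonic 1 lay with hypertonic 2 and isotonic 2 with hypertonic 1, which by itself gives a strongly negative r. These values therefore cannot show whether the numbers pair the libraries. With the replicate block 0 genes were called in both rescue comparisons. A crossed replicate block, added after the data were seen, called 38 between hypertonic and isotonic, 7 higher and 31 lower.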
